A study of Mus musculus with 23 samples.

Results

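The cells described here are multipotent progenitors of mouse bone marrow with much CD135 protein and little CD150 protein on their surface, the phenotype named MPP4. They were chosen by antibody counts: raw CD135 UMIs (unique molecular identifiers, 1 per captured tag) above 73 and raw CD150 UMIs of at most 17, the 75th and 50th percentiles of the pooled Control cells. Cells that detected 3 or more of Ebf1, Vpreb1, Vpreb3, Igll1, Cd79a and Pax5 were left out. The rule set no level of CD48, so cells with little CD48 could enter. This gate held 9400 of 50460 kept cells (18.6%) in the 6 baseline libraries. An MPP3 gate (CD135 and CD150 both at or below the 50th percentile, with no rule on CD48) held 5665 cells. A stem cell gate (CD150 above the 75th percentile, CD48 and CD135 at or below the 50th) held 6894. The study compared loss of Jarid2 with loss of Ezh2 in blood stem and progenitor cells. The libraries come from untransplanted mice 2 months old: Control, Ezh2 KO and Jarid2 KO, each with 1 male and 1 female library, all carrying Mx1-Cre. The knockout mice carry floxed Ezh2 or floxed Jarid2 alleles, and the labels do not give the alleles of the Controls, how Cre was induced, or whether a library came from 1 animal or a pool. From enriched c-Kit+ marrow, c-Kit+ Sca1+ lineage-negative (KSL) cells were sorted, stained with barcoded antibodies and profiled by droplet sequencing of transcript 3′ ends.

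CD135 is the protein of Flt3, a cytokine receptor that supports early lymphoid and dendritic cell development, and CD150 (Slamf1) is kept by stem cells and lost as multipotent progenitors turn to lymphoid and myeloid fates. MPP4 cells still form myeloid cells but lean to lymphoid fates, and many already transcribe Dntt, the terminal transferase that adds bases at antigen receptor joints. Ezh2 is the methyltransferase of Polycomb repressive complex 2 (PRC2), which marks silent genes with H3K27me3. Jarid2 is an accessory subunit that helps bring PRC2 to chromatin. Mx1-Cre is driven by an interferon-responsive promoter and deletes in blood cells and in other tissues, so it is not specific to MPP4 cells.

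The gate took 27.9% of kept cells in the male Control library (exact 95% interval 26.9 to 29.0%) and 9.87% in the female Control library (9.24 to 10.5%). Ezh2 KO gave 25.8% (24.96 to 26.7%) in the male and 13.6% (12.9 to 14.2%) in the female, and Jarid2 KO gave 17.5% (16.6 to 18.3%) and 18.5% (17.6 to 19.4%). These intervals cover counting error only. The group means were 18.9% ± 12.7 (SD, n = 2) in Control, 19.7% ± 8.68 in Ezh2 KO, against 18.0% ± 0.712 in Jarid2 KO. No difference was detectable with 2 libraries a group (exact permutation p = 1 for each pair, two-sided, where 2 against 2 allows no p below 0.333). The antibody levels themselves differed between the Control libraries: over all kept cells median CD150 was 12 UMIs in the male and 21 in the female, and median CD135 was 45 and 27. With each library's own percentiles as thresholds, which evens out such differences by construction, the shares were 16.9% and 17.8% in Control and 16.1 to 17.9% in the knockouts. Staining strength and cell makeup cannot be told apart here. Cells of the gate held 11280639 to 37080176 gene UMIs per library and a median of 11773 to 13182.5 UMIs each. The 6 libraries shared 9 to 34 cell barcodes per pair, at most 0.358% of the smaller library, and 0 to 5 within the gate. Kept cells were also ranked by a doublet score, and a preset share of the highest was marked in each library, 0.8% per 1000 deposited barcodes. Of the gate's cells 2.16 to 5.38% were marked in this way, and they were kept. The score's own threshold marked only 0 to 139 kept cells per library. The B-gene exclusion removed 67 and 8 cells from Control, 106 and 8 from Ezh2 KO and 9 and 8 from Jarid2 KO (male, then female). Among all kept cells, 22.9% of the male and 13.4% of the female Ezh2 KO cells detected at least 3 of the 6 B genes, against 7.71% and 2.67% in Control and 3.34% and 3.89% in Jarid2 KO.

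The transcripts followed the surface label. Levels are given as CPM, a gene's count scaled to a common total of gene UMIs (counts per 1e6), summed over the gate's cells of 1 library, and pairs of values are in the order male, female. Flt3, whose protein set the gate, stood at 605 ± 31.0 CPM (SD, n = 6 libraries), against 145 in the MPP3 gate and 26.2 in the stem gate. This is a description, since the rule used its protein. Satb1, a chromatin organiser of early lymphoid cells that the rule did not use, averaged 392 ± 55.6 CPM against 109 and 14.2. Satb1 was higher by 1.87 on the log2 scale than in MPP3 (SE 0.08, edgeR FDR = 4.41e-11) and by 4.83 than in the stem gate (FDR = 7.26e-16). Dntt averaged 593 ± 195 CPM in the MPP4 gate, 35.3 in the MPP3 gate and 2.86 in the stem gate, higher by 4.15 (SE 0.12, edgeR FDR = 5.25e-13) and by 7.84 (SE 0.16, FDR = 6.99e-16). Every library had more Flt3, Satb1 and Dntt in its MPP4 gate than in both of its other gates, as the plot of marker levels by gate shows. Each library was compared with itself in these fits, where 40.0% of 15096 genes passed an FDR (Benjamini-Hochberg adjusted p) of 0.05 against MPP3 and 61.8% against the stem gate.

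**Figure D1:**
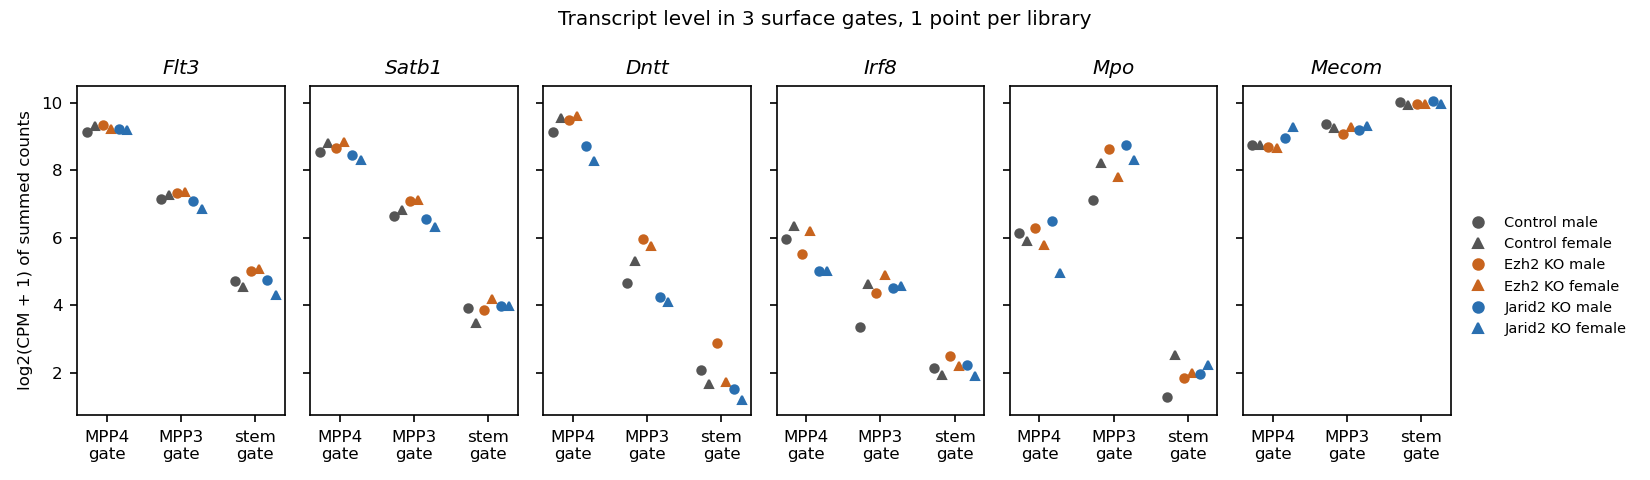
Transcript levels of 6 genes in the 3 surface gates, as log2(CPM + 1) of counts summed per library, with 1 point per library, colour for genotype and shape for sex. Dntt and Satb1 are highest in the MPP4 gate of every library, Mpo in the MPP3 gate and Mecom in the stem gate.

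Of 21 tested genes of an early lymphoid list (Flt3 left out), 14 were higher and 5 lower than in MPP3, with a median log2 difference of 0.65 against 0.00 over all genes. Against the stem gate 19 were higher and 2 lower, with a median of 2.45. Among all genes 19.6% were called higher than in MPP3 and 30.8% higher than in the stem gate. Notch1, the receptor that starts T cell fate, averaged 87.4 CPM against 26.1 in MPP3 and 16.3 in the stem gate, and Rag2, a subunit of the antigen receptor recombinase, averaged 8.16 against 0.519 and 0.202. Il7r, Ly6d and Ikzf3 were among those lower than in MPP3. Il7r, the interleukin 7 receptor of lymphoid progenitors, averaged 28.3 CPM in MPP4, 57.0 in MPP3 and 0.622 in the stem gate (log2 -0.98, edgeR FDR = 0.0199, and 5.59, FDR = 7.25e-07). Its direction against MPP3 was not the same in every library: it was lower in MPP4 in the male Control and higher in the female Control. The MPP3 mean includes the Jarid2 KO libraries, which held more Il7r there than Control of the same sex (values below). The MPP3 gate was itself mixed: it carried Igkc (an antibody light chain) at a mean of 11792 CPM against 110 in MPP4, and Gata3 (a regulator of T and innate lymphoid cells) at 60.8 against 6.53. Of 15 T and innate lymphoid genes, 14 were lower in MPP4 than in MPP3, where 20.4% of all genes were called lower. The part of such cells in the lower Il7r of MPP4 was not tested.

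Stem cell transcripts were lower in the gate. Of 19 tested (Slamf1 left out because its protein set the gate), 16 were lower than in MPP3 and 18 lower than in the stem gate, and Hoxa9 was higher against both. Among all genes 20.4% were called lower than in MPP3 and 30.9% lower than in the stem gate. Mecom, a transcription factor that stem cells need, averaged 467, 611 and 1016 CPM in the MPP4, MPP3 and stem gates (log2 -0.38, edgeR FDR = 1.56e-04, and -1.09, FDR = 2.23e-10), so it was reduced and not absent. Procr, which encodes the CD201 protein, averaged 12.3, 28.5 and 42.2 CPM. None of the 14 megakaryocyte and erythroid genes was higher in the gate, and 13 were lower than in MPP3 and 14 than in the stem gate.

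Of 20 myeloid genes, 13 were lower than in MPP3 and 3 higher, with a median of -0.95, where 20.4% of all genes were called lower. Against the stem gate 11 were higher and 2 lower, with a median of 0.97, where 30.8% of all genes were called higher and 30.9% lower. Taken without direction, these 13 of 20 are near the share called among all genes (61.8%). Mpo, the granule enzyme myeloperoxidase, ranged from 30.2 to 89.0 CPM in MPP4 and from 138 to 431 in MPP3, and averaged 3.06 in the stem gate. Irf8, a transcription factor of monocyte and dendritic cell fate, averaged 53.6 CPM against 20.9 and 3.47, the highest of the 3 gates. Csf1r and Spi1 were the other myeloid genes higher than in MPP3. Of 20 cell cycle genes, 12 were higher and 1 (Cdk6) lower than in MPP3, and 17 were higher and 1 (Ccnd2) lower than in the stem gate. The shares called higher among all genes were 19.6% and 30.8%. Mki67, made by dividing cells, averaged 190 CPM against 115 and 131.

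Ranked by fold among genes that passed with a mean of at least 10 CPM, an established symbol and no overlap between gates, the first against MPP3 were Gria2 (log2 5.37), Ctnnd2 (4.92), Dntt, Cd33 (3.39), Wfdc18 (3.34), Ddx4 (3.25), Emp1 (3.24) and Wfdc17 (3.14). Gria2 encodes a glutamate receptor subunit and Cd33 a sialic acid binding receptor of blood cells. Gria2, Dntt and Cd33 were also among the 8 highest against the stem gate (9.12, 7.84 and 6.13), with Sema3d (7.53), Clec2i (6.79), Arpp21 (6.75), Btla (5.97) and Atp8b4 (5.83). The genes lower than in MPP3 by the largest folds were Iglc1, Elane, Iglc3, Iglc2, Igkc, Ikzf3, Stab2 and Ms4a3, between -8.70 and -6.53. Iglc1, Iglc2, Iglc3 and Igkc are antibody chains. Elane and Ms4a3 are on the myeloid list, Ikzf3 on the early lymphoid list and Stab2 on the T and innate lymphoid list. Against the stem gate the largest falls were Cavin2 (-10.05), Rhoj (-8.46), Gda (-7.90), Aldh1a1 (-7.12), Nupr1 (-7.08), Runx1t1 (-7.05), Mmp16 (-7.00) and Plcb1 (-5.79).

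Within the gate, transcript levels moved with CD135. In the lowest CD135 tertile of each library's gate Dntt stood at 234 and 508 CPM in Control, 428 and 498 in Ezh2 KO, with 184 and 134 in Jarid2 KO. The highest tertile had 892 and 959, 1009 and 1091, and 657 and 486, and the middle tertile lay between in all 6 libraries. Il7r followed the same order, from 7.10 and 13.4 CPM to 43.2 and 64.4 in the Controls, while Mecom went the other way, from 521 and 490 CPM to 345 and 404. These orders are descriptions, because CD135 set the gate, and cells with more CD135 also held more RNA, with a median of 11009 UMIs in the lowest and 13681 in the highest tertile of the male Control. Near the threshold, cells with 63 to 73 CD135 UMIs, just outside, held Dntt at 92.4 and 366 CPM in Control, 228 and 454 in Ezh2 KO, with 129 and 84.8 in Jarid2 KO. Cells with 74 to 87 UMIs, just inside, held 186 and 514, 341 and 453, and 153 and 128.

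**Figure D2:**
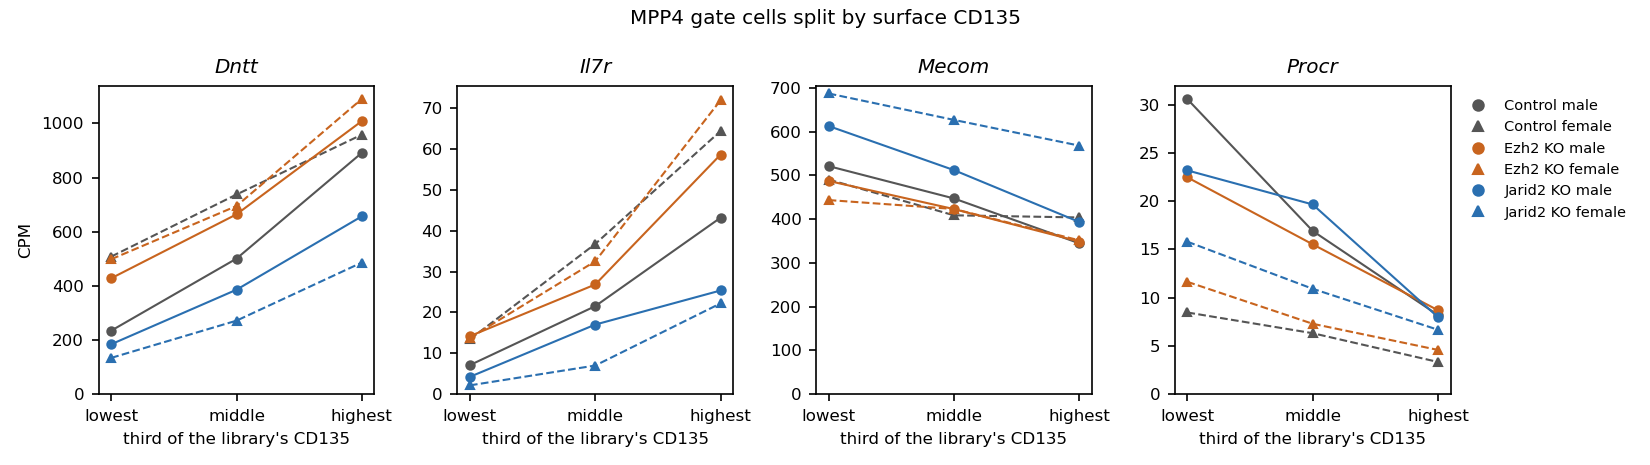
Transcript level (CPM) by tertile of surface CD135 within the gate, with 1 line per library, colour for genotype and a dashed line for female. Dntt and Il7r are higher, and Mecom and Procr lower, in the highest than in the lowest CD135 tertile of all 6 libraries.

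Cells were next thinned to 4000 UMIs each, so that depth did not set the share of cells in which a transcript was seen. A Dntt UMI was then found in 49.5% (47.3 to 51.8%) of male and 65.9% (62.6 to 69.1%) of female Control cells, in 64.9% (63.0 to 66.8%) and 72.4% (69.98 to 74.8%) of Ezh2 KO cells, and in 49.0% (46.4 to 51.7%) and 41.3% (38.7 to 44.0%) of Jarid2 KO cells. The stem gate, which should lack Dntt, gave 0.625 to 2.05%. Thinning left out 3 to 22 cells per library, and without it the shares were 65.3% and 80.9%, 80.1% and 85.1%, and 68.3% and 59.7%. Il7r was seen in 5.82% and 8.31% of Control, 7.85% and 10.1% of Ezh2 KO and 3.61% and 3.04% of Jarid2 KO cells, against at most 0.512% in the stem gate. Cd79b was seen in 9.04 to 10.3% of the gate's cells and in 6.02 to 8.88% of stem gate cells at this depth, and its summed level was higher than in the stem gate by 0.23 on the log2 scale (edgeR FDR = 0.00302). The part of free RNA in its share was not tested. Siglech, a marker of plasmacytoid dendritic cells, was seen in at most 1.08%.

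Some barcodes held both lymphoid and granule transcripts. At the same depth, 9.06% and 7.59% of Control cells, 11.8% and 10.1% of Ezh2 KO cells and 12.8% and 4.70% of Jarid2 KO cells held both a Dntt and an Mpo UMI. Mpo without Dntt was seen in 2.74 to 8.47% of cells and Dntt without Mpo in 36.2 to 62.4%. In the stem cell gate Mpo without Dntt was seen in 0.880 to 2.00% of cells. The part of cells marked as doublets by the preset share (2.16 to 5.38% of the gate's cells) and of free RNA was not tested. Mecom was seen less often in cells with a Dntt UMI than in the other cells of the same library, in all 6 libraries, from 48.3% against 77.3% in the male Control to 74.4% against 82.2% in the female Jarid2 KO. These shares describe cells of the same libraries and carry no test.

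Most of the genes that passed between Ezh2 KO and Control in the gate were higher in Ezh2 KO. Of 14559 genes tested with sex in the fit, 63 passed (0.433%), 53 higher and 10 lower than in Control (Ebf1 of the exclusion rule included), and 1579 had an unadjusted p under 0.05. In 60 of the 63 the CPM of the 2 Control and the 2 Ezh2 KO libraries did not overlap, against 36.9% of all genes tested. Here and below, values summed over cells cannot tell fewer expressing cells from less RNA per cell. The p-values rest on a spread estimated from the libraries of every genotype together, with sex in the fit and 2 libraries in each group. Libraries outside a comparison therefore also enter its p-values.

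The targeted gene was checked first. Ezh2 itself stood at 198 and 209 CPM in Control, 138 and 147 in Ezh2 KO, with 207 and 188 in Jarid2 KO. Both Ezh2 KO libraries were below all 4 others, by -0.50 on the log2 scale against Control (SE 0.08, edgeR FDR = 0.0562). The Ezh2 transcript was called higher in Jarid2 KO than in Ezh2 KO (edgeR FDR under 0.05). Jarid2 stood at 162 and 155 CPM in Control, 147 and 151 in Ezh2 KO, with 247 and 256 in Jarid2 KO, higher in Jarid2 KO by 0.68 (SE 0.06, edgeR FDR = 0.0128, lost without the female Control). Counts of 3′ ends can come from a transcript that lacks a floxed exon, so neither level checks the deletion and the libraries are called knockouts by their labels. The other PRC2 genes of the Polycomb list, Ezh1, Eed and Suz12 among them, did not pass in any of the 3 genotype comparisons.

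Hmga2, a chromatin protein of fetal stem cells, was higher in both knockouts. It stood at 42.8 and 41.6 CPM in Control, 147 and 152 in Ezh2 KO, with 70.5 and 87.0 in Jarid2 KO. Both knockouts lay above Control in both sexes, and Ezh2 KO lay above Jarid2 KO. The log2 changes were 1.84 in Ezh2 KO (SE 0.09, edgeR FDR = 3.47e-04), 0.90 in Jarid2 KO (SE 0.09, FDR = 0.0135) and -0.94 for Jarid2 KO against Ezh2 KO (FDR = 0.00406). At 4000 UMIs an Hmga2 transcript was seen in 10.4% ± 0.587 of Control, 28.6% ± 0.572 of Ezh2 KO and 19.3% ± 1.98 of Jarid2 KO cells (SD, n = 2). Ccr9, the chemokine receptor that guides progenitors to the thymus, stood at 27.7 and 13.8 CPM in Control, 90.8 and 41.1 in Ezh2 KO, with 52.5 and 28.7 in Jarid2 KO. Ccr9 was higher by 1.68 in Ezh2 KO (SE 0.08, edgeR FDR = 3.47e-04) and by 1.00 in Jarid2 KO (SE 0.09, FDR = 0.0089), and the male exceeded the female in each genotype. Mycn, a Myc family growth regulator, stood at 17.0 and 20.7, 29.1 and 35.2, and 33.2 and 51.7 CPM. Mycn rose by 0.79 in Ezh2 KO (edgeR FDR = 0.0294, lost without either Control library or the male Ezh2 KO) and by 1.16 in Jarid2 KO (SE 0.11, FDR = 0.0106).

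The promoters of these genes, higher in both knockouts than in the shared Control libraries, are shown because PRC2 in general gathers at promoters rich in the dinucleotide CG. Each run is the 250 bases before the RefSeq transcript start on build GRCm38.p6, 5′ to 3′ on the gene's strand, with every CG in capitals. CG reads the same on both strands. Over 32851 such promoters the median count was 6.
Hmga2: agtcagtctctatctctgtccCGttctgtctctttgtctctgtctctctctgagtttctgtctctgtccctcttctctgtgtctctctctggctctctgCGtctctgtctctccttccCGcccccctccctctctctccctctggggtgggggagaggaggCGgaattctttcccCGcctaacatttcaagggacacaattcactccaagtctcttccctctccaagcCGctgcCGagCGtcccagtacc
Ccr9: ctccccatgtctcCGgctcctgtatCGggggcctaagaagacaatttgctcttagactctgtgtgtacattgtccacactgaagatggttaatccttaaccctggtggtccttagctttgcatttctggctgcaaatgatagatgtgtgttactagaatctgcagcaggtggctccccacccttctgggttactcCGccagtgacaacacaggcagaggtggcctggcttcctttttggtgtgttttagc
Mycn: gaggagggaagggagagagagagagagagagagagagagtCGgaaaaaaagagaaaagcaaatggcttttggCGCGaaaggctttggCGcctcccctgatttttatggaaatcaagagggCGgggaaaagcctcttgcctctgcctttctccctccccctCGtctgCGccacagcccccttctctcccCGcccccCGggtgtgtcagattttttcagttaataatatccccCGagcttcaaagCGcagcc
The Hmga2 promoter lies at chr10:120476470-120476719 on the minus strand and holds 8 CG, and 43.0% of promoters hold at least as many. The Ccr9 promoter at chr9:123766961-123767210 on the plus strand holds 3 (71.0% hold at least as many), and the Mycn promoter at chr12:12941837-12942086 on the minus strand holds 11 (35.6%). The same windows of genes not higher in both knockouts held 29 and 8 CG at the Irf8 starts, 13 at Flt3, 6 at Blnk and 2 at Dntt. The counts describe these windows, a link between CG count and direction was not tested, and H3K27me3 was not analysed here.

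Other genes rose in Ezh2 KO and did not pass in Jarid2 KO. Those named next were also lower in Jarid2 KO than in Ezh2 KO at an edgeR FDR under 0.05, the test of that difference. Pbx3, a homeodomain partner of Hox proteins, stood at 32.1 and 31.5 CPM in Control, 86.4 and 77.7 in Ezh2 KO, with 27.3 and 25.02 in Jarid2 KO. It rose by 1.39 in Ezh2 KO (SE 0.07, edgeR FDR = 3.47e-04) and was lower by -1.66 in Jarid2 KO than in Ezh2 KO (SE 0.07, FDR = 2.09e-04). Gnb4, a G protein subunit, stood at 15.5 and 14.4, 46.0 and 40.1, and 15.8 and 15.6 CPM, a rise of 1.55 (SE 0.08, edgeR FDR = 4.21e-04). Gria2, first in the ranking against MPP3, stood at 11.7 and 12.1 CPM in Control, 48.5 and 37.1 in Ezh2 KO, with 19.3 and 24.8 in Jarid2 KO. Its rise was 1.89 in Ezh2 KO (SE 0.17, edgeR FDR = 0.00685), and 0.92 in Jarid2 KO did not pass (FDR = 0.134). Bmpr1a, a receptor for bone morphogenetic proteins, was at 2.55 and 5.76 CPM in Control and 16.6 and 22.1 in Ezh2 KO (log2 2.36, edgeR FDR = 0.00502). Bex4 rose by 1.58 (FDR = 0.0148) and Mid1 by 2.00 (FDR = 0.039, lost without the male Ezh2 KO and with DESeq2).

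Of the 10 genes that fell in Ezh2 KO, Ccser1 moved most among those named, from 247 and 212 CPM in Control to 114 and 98.2, with 268 and 242 in Jarid2 KO. Its change was -1.09 in Ezh2 KO (SE 0.06, edgeR FDR = 5.74e-04) and 0.17 in Jarid2 KO. Hk3 (a hexokinase), Sema3d, Ino80dos, Prtn3 (a neutrophil protease), Arid5b and Itih5 fell by 0.67, 0.65, 0.60, 0.59, 0.57 and 0.45. Each of these 6 calls was lost when either Ezh2 KO library was left out. Prtn3 stood at 274 and 316 CPM in Control and 178 and 209 in Ezh2 KO.

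Interferon-stimulated genes were the only list with more than 1 member called in Ezh2 KO against Control. They were at 3 of 15 higher, where 0.364% of all genes were called higher, and at a median log2 of 0.58, against 0.00 over all genes. Isg15, a ubiquitin-like protein, stood at 20.1 and 21.3 CPM in Control, 33.5 and 37.0 in Ezh2 KO, with 19.6 and 26.2 in Jarid2 KO (Ezh2 KO 0.78, edgeR FDR = 0.0212). Irf7 rose by 0.74 (FDR = 0.0416) and Ifi44 by 0.74 (FDR = 0.0171). The list summed to 453 and 492 CPM in Control, 596 and 649 in Ezh2 KO, against 401 and 446 in Jarid2 KO, and there was no overlap between Ezh2 KO and the others. All 3 calls were lost when the male library of either Control or Ezh2 KO was left out. No early lymphoid gene other than Ccr9 passed in Ezh2 KO, including Dntt (0.22, edgeR FDR = 0.687), Satb1 (0.10, FDR = 0.757) and Flt3 (0.09, FDR = 0.729). The Flt3 value is a description, since its protein set the gate. The B-lineage list, which includes genes of the exclusion rule, had a median of 0.87 in Ezh2 KO against Control. Of its 16 tested genes 13 were above 0, and the only call was Ebf1 of that rule.

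The number of Ezh2 calls depended on single libraries. Leaving out the male Control gave 34 calls and leaving out the female Control gave 127. It gave 29 for the male Ezh2 KO, 320 for the male Jarid2 KO and 290 for the female Jarid2 KO. Without sex in the fit edgeR called 8 genes, and Hmga2, Pbx3, Gnb4, Gria2 and Ccser1 were among them.

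Genes lower in the gate of the libraries labelled Jarid2 KO included the lymphoid adaptor gene Blnk and the myeloid genes Irf8, Mpeg1 and Ctsg. Of 14559 genes, 32 passed (0.220%), 8 higher and 24 lower than in Control (Ebf1 of the exclusion rule included), and 1709 had an unadjusted p under 0.05. The split between directions rested on single libraries: 17 were higher and 15 lower without the female Control, and 22 and 23 without the female Jarid2 KO. Control is shared with the Ezh2 comparison. In 28 of the 32 the groups' CPM did not overlap, against 39.0% of all genes tested.

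Blnk, an adaptor of the B cell receptor, stood at 15.4 and 21.4 CPM in Control, 13.6 and 17.3 in Ezh2 KO, with 5.78 and 4.91 in Jarid2 KO. Both Jarid2 KO libraries were below all others, by -1.74 against Control (SE 0.17, edgeR FDR = 0.0135) and by -1.52 against Ezh2 KO (FDR = 0.0106). Irf8 stood at 61.1 and 80.8 CPM in Control, 44.7 and 72.2 in Ezh2 KO, with 31.3 and 31.4 in Jarid2 KO, lower by -1.15 (SE 0.14, edgeR FDR = 0.0354). Mpeg1, a pore-forming protein of macrophages, stood at 14.8 and 20.9, 9.52 and 13.3, and 3.78 and 6.79 CPM (-1.77 in Jarid2 KO, SE 0.14, edgeR FDR = 0.00612). Ctsg, the neutrophil granule protease cathepsin G, stood at 52.5 and 43.3, 46.4 and 35.6, and 21.8 and 8.41 CPM (-1.69, edgeR FDR = 0.0399, lost with centred log ratios for the antibodies). Clec12a, a lectin receptor of myeloid cells, fell by 1.02 (FDR = 0.0162), Tpm4 by 0.97 (FDR = 0.0179) and Pde7b by 0.93 (FDR = 0.0403). With a narrower gate (CD135 above the 90th and CD150 at or below the 25th percentile) the calls of Irf8, Mpeg1, Ctsg, Tpm4 and Pde7b were lost and those of Blnk and Clec12a were kept. The folds there were -1.44 for Mpeg1, -1.21 for Ctsg, -0.93 for Tpm4 and -0.99 for Pde7b, with Irf8 nearer to 0 at -0.62. The Pde7b call was also lost without the female Control or the female Jarid2 KO. In the myeloid list Ctsg, Irf8 and Ly86 fell, 3 of 16 tested with a median of -0.29, where 0.165% of all genes were called lower. The Ly86 call was lost without either Control library or the female Jarid2 KO. Mpo (69.9 and 59.4, 76.8 and 54.4, 89.0 and 30.2 CPM) did not pass, and its 2 Jarid2 KO libraries lay on either side of Control. Ebf1, a B cell factor among the genes used to leave cells out, was at 25.4 and 8.33 CPM in Control, 46.8 and 19.7 in Ezh2 KO, with 8.16 and 2.77 in Jarid2 KO, given as a description.

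Beside Hmga2, Ccr9, Mycn and Jarid2, the named genes higher in Jarid2 KO were Slc16a11 and Airn. Airn, the long noncoding antisense RNA of the imprinted Igf2r locus, stood at 39.5 and 68.6 CPM in Control, 60.1 and 88.6 in Ezh2 KO, with 88.7 and 155 in Jarid2 KO. Its rise in Jarid2 KO was 1.19 (SE 0.08, edgeR FDR = 0.00556) and 0.51 in Ezh2 KO did not pass (FDR = 0.0565). The strand rule of the counting is not given in the sources used here, so Airn cannot be told apart from Igf2r reads where the genes overlap. Slc16a11, a transporter of the monocarboxylate family, stood at 15.8 and 13.2, 26.97 and 21.2, and 33.9 and 37.0 CPM (1.30, SE 0.12, edgeR FDR = 0.0128).

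The stem cell list had 1 call in Jarid2 KO, Mycn, and a median of 0.31 over 19 genes. Mecom stood at 431 and 432 CPM in Control, 415 and 401 in Ezh2 KO, with 500 and 624 in Jarid2 KO, which did not pass (0.39, edgeR FDR = 0.203), although Jarid2 KO lay above the other libraries in both sexes. Hlf, a stem cell transcription factor, stood at 449 and 361, 423 and 331, and 509 and 721 CPM and did not pass either (0.62, FDR = 0.284). Of the dendritic, T and innate lymphoid, cell cycle, CDK inhibitor, stress and developmental regulator lists no tested member passed in any of the 3 genotype comparisons. The test covered 13 of 13 dendritic, 10 of 16 T and innate lymphoid and 20 of 20 cell cycle genes. It covered 5 of 7 CDK inhibitor, 7 of 9 stress and 2 of 20 developmental regulator genes. The remaining developmental regulators had too few counts to be tested. In Jarid2 KO against Control 20 of 20 cell cycle genes (median -0.11) and 10 of 13 dendritic genes (median -0.34) lay below 0. Of the T and innate lymphoid genes 8 of 10 lay above 0 (median 0.29). Against Ezh2 KO 17 of 20 cell cycle genes lay below 0 and 3 above. These splits are descriptions and carry no test.

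Some Jarid2 calls rested on the female libraries. Fyb2 stood at 0.15 and 61.6 CPM in Control, 0.0809 and 50.0 in Ezh2 KO, with 0.054 and 2.35 in Jarid2 KO (-4.67, edgeR FDR = 6.35e-04). Ppp2r2b (0.075 and 47.4, 0.297 and 71.5, 0.216 and 7.73 CPM) and Thbs1 (0.187 and 46.4, 0.431 and 45.5, 0.054 and 8.04 CPM) had the same pattern and passed as well, at -2.52 and -2.48. All 3 were near 0 in every male library, so the calls compare the female libraries only. These genes fell outside the naming rule and were chosen after their values were seen. The Jarid2 count was 67 without the male Control, 95 without either Ezh2 KO library and 388 without the male Jarid2 KO. Without sex in the fit edgeR called 0 genes, with 1067 at an unadjusted p under 0.05, and DESeq2 with sex called 82.

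**Figure D3:**
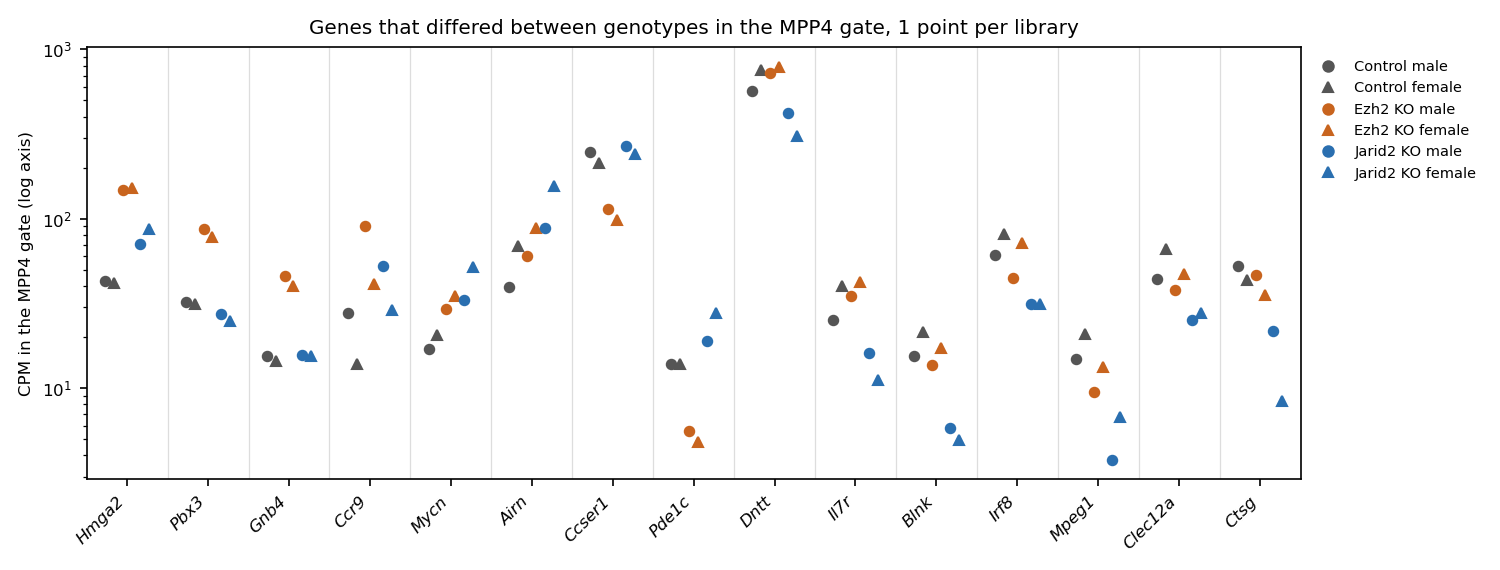
CPM in the gate (log axis) of genes named in the genotype comparisons, with 1 point per library, colour for genotype and shape for sex. Hmga2 and Ccr9 are higher in both knockouts than in Control of the same sex, Pbx3 and Gnb4 are highest in Ezh2 KO, and Blnk and Irf8 are lowest in Jarid2 KO.

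Set directly against each other, Jarid2 KO and Ezh2 KO differed in 184 genes (1.26%; Ebf1, Vpreb3 and Igll1 of the exclusion rule included), 30 higher and 154 lower in Jarid2 KO, with 2287 at an unadjusted p under 0.05. In 169 of the 184 the groups did not overlap, against 44.0% of all genes. Among all genes 0.206% were called higher and 1.06% lower in Jarid2 KO. Of 21 early lymphoid genes 6 were lower in Jarid2 KO (Dntt, Rag2, Il7r, Ccr9, Notch1 and Blnk) and 0 were higher, with a median of -0.37. Against Control the same list had 1 gene lower in Jarid2 KO (Blnk) and 1 higher (Ccr9), with a median of -0.16. Myeloid genes were lower than in Ezh2 KO too: Ctsg, Irf8 and S100a9 among 16, with a median of -0.21. Among 16 B-lineage genes the only calls were Ebf1, Vpreb3 and Igll1, all used by the exclusion rule. That rule removed 106 and 8 cells from Ezh2 KO and 9 and 8 from Jarid2 KO. These B-lineage calls and their list's median of -1.08, which includes rule genes, are therefore given as a description. The Irf8 call was lost without the female Ezh2 KO and that of S100a9 without any 1 of the Ezh2 KO or Jarid2 KO libraries.

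Dntt stood at 566 and 750 CPM in Control, 720 and 790 in Ezh2 KO, with 422 and 308 in Jarid2 KO. The 2 Jarid2 KO libraries were the lowest of the 6. The difference from Ezh2 KO was -1.05 (SE 0.17, edgeR FDR = 0.0414, lost without the female Ezh2 KO and with DESeq2) and that from Control was -0.83 (SE 0.17, FDR = 0.15). Detecting cells held on average 4.40 and 4.31 UMIs in Control, 4.31 and 4.07 in Ezh2 KO, with 3.18 and 2.76 in Jarid2 KO at 4000 UMIs. The Jarid2 KO shares (45.2% ± 5.46, n = 2) did not overlap those of Ezh2 KO (68.7% ± 5.34) or of Control (57.7% ± 11.6), with an exact permutation p of 0.333 for each, the smallest possible. The male libraries of Jarid2 KO and Control differed in share by less than their counting intervals. Without thinning the Jarid2 KO shares overlapped those of Control, at 68.3% in the male Jarid2 KO and 65.3% in the male Control (exact permutation p = 0.667).

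**Figure D4:**
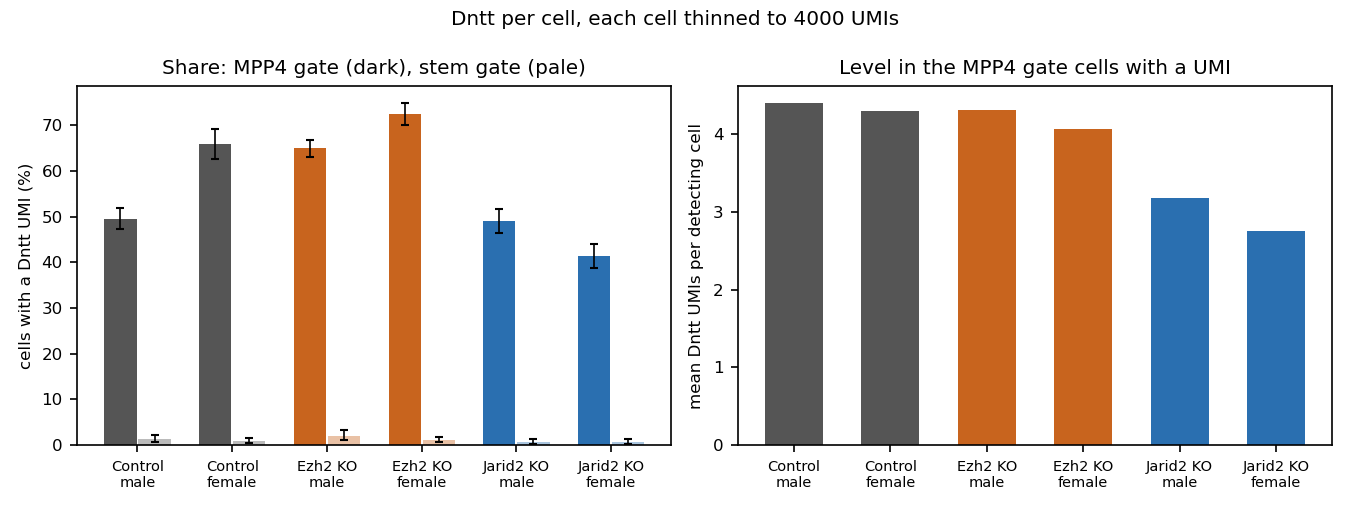
On the left, bars give the share of cells with a Dntt UMI in the MPP4 gate (dark) and the stem gate (pale), with exact 95% binomial intervals, and on the right the mean Dntt UMIs per detecting cell, both at 4000 UMIs per cell. The Jarid2 KO libraries have the fewest UMIs per detecting cell, 3.18 and 2.76, and the female Jarid2 KO has the lowest share, 41.3%.

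Il7r stood at 25.3 and 40.0 CPM in Control, 34.9 and 42.3 in Ezh2 KO, with 16.0 and 11.2 in Jarid2 KO, lower in Jarid2 KO than in Ezh2 KO by -1.50 (SE 0.22, edgeR FDR = 0.0291). Notch1 stood at 88.8 and 92.0, 97.2 and 111, and 73.1 and 62.7 CPM (-0.62, edgeR FDR = 0.0379), and Rag2 at 5.74 and 12.9, 8.66 and 12.3, and 4.00 and 5.43 CPM (-1.17, FDR = 0.0418). For these genes too Jarid2 KO was lowest, though none of them passed against Control. The calls of Notch1 and Rag2 were lost without the female Ezh2 KO, and that of Rag2 also without the male Ezh2 KO or the female Jarid2 KO. The Ccr9 call was lost without the male Ezh2 KO. Satb1 stood at 371 and 450, 409 and 457, and 349 and 319 CPM and did not pass (-0.38, edgeR FDR = 0.131). Flt3 stood at 562 and 632, 649 and 602, and 596 and 591 CPM, and did not pass (-0.08, FDR = 0.657). This too is a description, since its protein set the gate with the same threshold in every library.

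Interferon genes were lower in Jarid2 KO than in Ezh2 KO at 5 of 15 (Isg15, Irf7, Oas2, Ifi27 and Ifi44) with a median of -0.64. Among all genes 1.06% were called lower. Against Control this list had 0 calls in Jarid2 KO and a median of -0.05. The Isg15 call was lost without either Ezh2 KO library, that of Irf7 without the male Ezh2 KO, and that of Oas2 without either Ezh2 KO library or the female Jarid2 KO, whereas Ifi27 kept its call under all 18 alternatives. Among immediate early genes, which respond to stimulation and handling, Klf2 and Klf4 were lower, 2 of 16, with the Klf4 call lost without the female library of either knockout. Klf2 stood at 11.2 and 10.5 CPM in Control, 20.0 and 19.1 in Ezh2 KO, with 9.94 and 9.35 in Jarid2 KO (-1.02, edgeR FDR = 0.00584). It was also called higher in Ezh2 KO than in Control, and no immediate early gene passed in Jarid2 KO against Control. Among genes with a mean of at least 10 CPM and no overlap, those with the largest falls in Jarid2 KO were Mid1 (-1.99), Cnn3 (-1.90), Slc24a2 (-1.77), Pbx3, Ifi27l2a (-1.65), Bex4 (-1.61) and Ppm1e (-1.55), after Ebf1 of the exclusion rule. Higher were Pde1c (2.11), Ccser1 (1.26), Jarid2, Airn (0.67) and Sema3d (0.71, lost without the female Ezh2 KO). The calls of Rnf144b (0.82), Foxd2os (0.63) and Zfp532 (0.55) were lost without either Ezh2 KO library and without the female Jarid2 KO. Pde1c, a phosphodiesterase, stood at 13.8 and 13.9 CPM in Control, 5.56 and 4.83 in Ezh2 KO, with 18.97 and 27.6 in Jarid2 KO, and the Ezh2 KO libraries were apart from the rest. The count was 323 without the male and 370 without the female Control, 109 without the female Ezh2 KO and 810 without the male Jarid2 KO. Without sex in the fit edgeR called 15 genes, Pbx3, Ccser1, Hmga2, Pde1c, Klf2, Ifi27 and Jarid2 among them.

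Surface proteins that the rule did not use were compared as medians over the gate's cells. CD48, a protein gained as stem cells turn into progenitors, stood at 1478.5 and 1028.5 UMIs in Control, 1802.5 and 1649 in Ezh2 KO, with 1196 and 734 in Jarid2 KO. The Ezh2 KO libraries lay above all others (exact permutation p = 0.333 against each group, the smallest possible), but all kept cells of Ezh2 KO stained more strongly too: relative to each library's own kept cells the gate's CD48 averaged 1.65-fold in Control, 1.27-fold in Ezh2 KO and 1.94-fold in Jarid2 KO. CD48 above 723 UMIs, the 50th Control percentile, was found on 1544 of 1998 and 580 of 834 of the gate's Control cells. It was found on 2153 of 2452 and 1129 of 1362 in Ezh2 KO, and on 976 of 1361 and 707 of 1393 in Jarid2 KO. The Cd48 transcript stood at 124 and 93.2, 148 and 119, and 101 and 63.7 CPM, lower in Jarid2 KO than in Ezh2 KO by -0.73 (SE 0.09, edgeR FDR = 0.0134). CD117, the Kit receptor, was at 179 and 159 UMIs in Control, 163 and 159 in Ezh2 KO, with 206 and 226 in Jarid2 KO, higher in Jarid2 KO without overlap (exact permutation p = 0.333). All kept cells of Jarid2 KO stained more for it too, with medians of 257 and 289 UMIs against 224 and 238 in Control. As a ratio to each library's own kept cells CD117 averaged 0.734 in Control, against 0.810 for Ezh2 KO and 0.792 for Jarid2 KO, and the libraries overlapped in every pair of groups. CD201 stood at 41 and 34 UMIs in Control and 33 and 32 in Ezh2 KO, below Control without overlap (exact permutation p = 0.333), while Jarid2 KO (50 and 38) overlapped Control. As a ratio to kept cells CD201 overlapped in every pair. The Sca1 tag (314 to 389.5 UMIs) overlapped between Control and both knockouts, though its ratio to kept cells, 0.931 in Control and 0.837 in Jarid2 KO on average, did not (exact permutation p = 0.333).

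The effects of each knockout in the gate were set against those in the MPP3 gate of the same libraries. For Ezh2, 3 of 14789 genes differed (0.0203%). Gnb4 rose more in MPP4 than in MPP3, where it stood at 29.8 and 27.7 CPM in Control and 46.0 and 42.2 in Ezh2 KO (difference 0.91, edgeR FDR = 0.0444). The difference ran from 0.88 to 0.93 when each library was left out, but the call was lost with DESeq2 and without any 1 of the Control or Ezh2 KO libraries. For Jarid2, 79 genes differed (0.534%), 5 higher and 74 lower in MPP4. Blnk is an example: in MPP3 it stood at 6.71 and 4.65 CPM in Control and 9.30 and 11.5 in Jarid2 KO, opposite to the fall in MPP4 (difference -2.72, SE 0.31, edgeR FDR = 0.00395). Il7r stood at 43.3 and 17.7 CPM in MPP3 Control and 100 and 58.3 in MPP3 Jarid2 KO (difference -2.68, SE 0.44, FDR = 0.0181). Irf8 stood at 9.12 and 23.7 against 21.6 and 22.6 CPM in MPP3 (difference -1.65, FDR = 0.00675), and the myeloid genes Mpeg1 (-3.08) and Clec12a (-2.05) differed in the same direction. Icos, a T and innate lymphoid receptor, stood in MPP3 at 8.57 and 5.06 CPM in Control but 72.1 and 48.5 in Jarid2 KO (difference -3.48, edgeR FDR = 0.00642), and its part in the Il7r and Blnk differences was not tested. For Dntt the Jarid2 effects in the 2 gates differed by 0.00 (SE 0.14, edgeR FDR = 1), and in MPP3 it stood at 24.5 and 38.98 CPM in Control and 17.9 and 16.1 in Jarid2 KO. Hmga2 did not pass either, at 0.36 for Ezh2 and 0.41 for Jarid2. Of 22 early lymphoid genes, 5 had a Jarid2 effect lower in MPP4 (Il7r, Ccr9, Notch1, Blnk and Cd52) and 0 a higher one. Also lower were 5 of 20 myeloid genes (Elane, Ctsg, Csf1r, Irf8 and S100a8) and 3 of 13 dendritic genes (Cd74, Id2 and Ccr2). So were 3 of 15 T and innate lymphoid genes (Gata3, Icos and Skap1) and, from other lists, Klf2, Ly6a and Blk. Among all genes 0.5% were called lower.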

How the data were processed

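The authors deposited raw UMI counts per gene and per antibody for each cell barcode. Cell Ranger 7.2.0 wrote them per the file headers, whereas the submitters' processing notes name Cell Ranger 3.1.0, Seurat 3.0 and mm10. How introns and strand were counted is not given in the sources used. Barcodes with at least 1000 UMIs, at least 500 genes and at most 10% mitochondrial UMIs were kept. The members and gene lists were chosen with earlier results of these data known. Libraries were read as male (replicate 1) and female (replicate 2). Counts of the gate's cells were summed per library and tested with edgeR 4.0.16 (R 4.3.3): filterByExpr, TMM, quasi-likelihood, two-sided, Benjamini-Hochberg over all genes, FDR 0.05. The model held genotype and sex, or the library as a block between gates. Named genes were Flt3, Satb1, Dntt, Jarid2, Ezh2, called list members and, per comparison, up to 8 genes in each direction by fold with a mean of at least 10 CPM, an established symbol and no overlap between groups. Shares of cells used 4000 UMIs per cell and exact (Clopper-Pearson) intervals. The scripts were tested on simulated data with 200 changed genes. CPM values carry the precision of 11280639 to 37080176 gene UMIs per library. Alternatives included DESeq2 1.42.0, other filters, leaving out each library and, for the genotype comparisons only, other gates and no sex term. Sex pairs the libraries across genotypes by its label. Transplant libraries and CUT&Tag were not analysed here. A gene is not reported here.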

Additional observations from a re-analysis of the deposited data

Results flagged for a closer look

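The following genes differed between the MPP4 and MPP3 gates in their response to a knockout, by edgeR's test of the difference itself (log2 change in MPP4 minus that in MPP3, with library as a block). For Ezh2 KO the differences were 1.62 for Mzb1 (FDR = 0.0444), 0.91 for Gnb4 (FDR = 0.0444) and -2.60 for Anxa3 (FDR = 0.00547). Mzb1, a gene of antibody-making cells, stood at 4.16 and 2.48 CPM in the Control and 10.4 and 8.25 in the Ezh2 KO libraries of the MPP4 gate (male, female). Anxa3, an annexin of myeloid cells, was at 7.12 and 10.7 CPM in MPP4 Control and 4.13 and 2.93 in MPP4 Ezh2 KO, against 4.40 and 12.6 and 23.8 and 15.2 in MPP3.

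For Jarid2 KO the effect was higher in MPP4 for Slc22a3 by 0.62 (edgeR FDR = 0.00815), Gulp1 by 0.62 (FDR = 0.0442), Stxbp4 by 0.58 (FDR = 0.00835), Angpt1 by 0.49 (FDR = 0.037) and Zfp521 by 0.44 (FDR = 0.0383). Angpt1, a vessel and stem cell niche ligand, stood at 1102 and 974 CPM in MPP4 Control and 986 and 1436 in MPP4 Jarid2 KO, and did not pass within the gate.

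The effect of Jarid2 KO was lower in MPP4 for Slpi by -4.04 (edgeR FDR = 0.00228), Icos by -3.48 (FDR = 0.00642), Elane by -3.47 (FDR = 0.0195), Anxa3 by -2.84 (FDR = 0.00145), Blnk by -2.72 (FDR = 0.00395) and Il7r by -2.68 (FDR = 0.0181). Slpi, a secreted protease inhibitor, stood at 6.49 and 15.9 CPM in MPP4 Control and 2.65 and 2.51 in MPP4 Jarid2 KO, against 14.5 and 14.0 and 71.4 and 42.7 in MPP3. Elane, the neutrophil elastase gene, was at most 1.61 CPM in every MPP4 library, so its difference comes from MPP3, where it stood at 63.5 and 135 CPM in Control and 487 and 378 in Jarid2 KO. Ighg2b, an antibody heavy chain, had a fitted difference of -10.51 (FDR = 0.0228), but it is near 0 in MPP4 and that fitted value is no bound. Among these items Slpi, Icos, Blnk and the Jarid2 difference of Anxa3 kept their calls under every alternative run, none of which changed the gates or removed doublets. In the MPP4 gate 14 of 15 T and innate lymphoid genes, 13 of 20 myeloid genes and 8 of 11 B-lineage genes were lower than in the MPP3 gate. Among all genes 20.4% were called lower there. The part of cells carrying those list genes in these differences was not tested.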

How the results depend on the processing

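Calls against MPP3 and the stem gate, and gate-dependent effects, were not rerun with other gates or with doublets removed. The counts against MPP3 and the stem gate were 5311 to 5643 and 8607 to 9026 when each library was left out. They were 2781 and 6067 with Control libraries only, and 5976 against the stem gate for genes with a mean of at least 10 CPM. Genotype counts below are in the order Ezh2 KO against Control, Jarid2 KO against Control, and Jarid2 KO against Ezh2 KO. With no sex term (no replicate block, so the paired sexes were ignored) edgeR called 8, 0 and 15 genes, with 997, 1067 and 1422 at an unadjusted p under 0.05. The counts were 380, 388 and 813 with every gene tested, 248, 60 and 312 with only the groups compared, and 148, 122 and 393 with each library's own percentiles as thresholds. Among genes of at least 10 CPM the first and the last were 39 and 84. DESeq2 called 82 for Jarid2 against Control, and 53 were called there without the B-gene exclusion. Centred log ratios gave 98 and an added CD48 rule 134 for Ezh2 against Control. A stricter gate (CD135 above the 90th and CD150 at or below the 25th percentile) gave 10 and 72 for the Jarid2 comparisons, from as few as 70 cells in the female Control. There Hmga2, Ccr9, Mycn, Airn and Slc16a11 also lost their Jarid2 KO calls against Control. Leaving out each library gave 29 to 320, 32 to 388 and 109 to 810. For gate-dependent effects it gave 3 to 10 for Ezh2 (0 to 3 of the 3 genes kept, 0 without the male Ezh2 KO) and 39 to 121 for Jarid2, DESeq2 gave 1 for Ezh2, DESeq2's size factors in edgeR 5, and testing every gene 97 and 383. The causes were not tested.

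The difference in the gate's share of kept cells ran, when each library was left out, from -8.20 to 9.83 percentage points for Ezh2 KO minus Control (0.817 with all, below 0 without the female Control or the male Ezh2 KO and, at -1.08, in the stricter gate). It ran from -9.91 to 8.12 for Jarid2 KO minus Control (above 0 without the male Control) and from -7.84 to 4.43 for Jarid2 KO minus Ezh2 KO (above 0 without the male Ezh2 KO). Centred log ratios gave 1.55 and 0.503 for these. Some values that were not called changed sign. For Jarid2 KO against Control, Ezh2 was 0.030 with own percentiles and 0.032 with the CD48 rule and ran from -0.15 to 0.090 when each library was left out. Flt3 there was -0.018 in the stricter gate and ran from -0.12 to 0.13. For Ezh2 KO against Control, leaving out each library gave -0.051 to 0.53 for Dntt, -0.034 to 0.24 for Satb1 and -0.034 to 0.21 for Flt3. Between the knockouts it gave -0.18 to 0.015 for Flt3. Ifi44, called lower in Jarid2 KO than in Ezh2 KO, was 0.084 in the stricter gate, where it was not called.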
